A study of Homo sapiens with 15 samples.

Results

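The E2F family was examined as 10 genes of the raw count table: the transcription factor genes E2F1 to E2F8 and the DP partner genes TFDP1 and TFDP2. The members were chosen by gene symbol, not by any measured value, out of 60649 genes in the table. All 10 passed the filter on low counts and were tested together with the other genes, 23711 in all. The cells were K562, an established human line of chronic myeloid leukemia, so every group is the same line and not a set of donors. Cells had either received no compound (untreated) or had been exposed for 24 h to martinostat, an inhibitor of histone deacetylases, at 0.15, 0.25, 0.5 or 1 µM. Each of the 5 groups had 3 libraries of poly(A) RNA, labelled as biological replicates, 15 libraries in all. The labels for the control do not mention a solvent, and no further treatment separated the groups.

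E2F proteins bind promoters of genes that a cell needs to enter S phase and to divide. E2F1, E2F2 and E2F3 are the activators, which the retinoblastoma protein RB1 holds inactive until cyclin-dependent kinases release them. E2F4 and E2F5 act mainly as repressors together with the pocket proteins RBL1 and RBL2, and with the MuvB proteins they form the DREAM complex of resting cells. E2F6 binds no pocket protein and silences genes as part of the Polycomb complex PRC1.6. All of these need a DP protein, made from TFDP1 or TFDP2, to bind DNA firmly. E2F7 and E2F8 are atypical repressors that carry 2 DNA-binding domains and need no DP partner. Several E2F genes are themselves targets of E2F proteins, so the family is known for regulating its own members.

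The promoters that hold an E2F consensus are shown first, because they are where members of the family could act on other members. The consensus searched was TTT, then 2 bases that are each C or G, then CGC, on either strand. RefSeq promoters of build GRCh38.p14, from 250 bases before to 50 bases after the transcription start, were found for 8 of the 10 members, which had 11 promoters. The consensus occurred in promoters of 4 members, E2F1, E2F2, E2F3 and TFDP1. Among all 27305 genes with a promoter, 3.99% held it. In the stretches below, read 5′ to 3′ on the strand of the gene and ending before the first exon, capitals mark each match.
E2F1, chr20:33686386-33686635, minus strand: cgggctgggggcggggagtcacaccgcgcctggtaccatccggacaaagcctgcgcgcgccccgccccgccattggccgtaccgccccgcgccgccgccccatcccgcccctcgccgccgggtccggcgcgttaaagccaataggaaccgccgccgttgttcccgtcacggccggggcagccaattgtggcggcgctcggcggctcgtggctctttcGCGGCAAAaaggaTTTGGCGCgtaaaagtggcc
E2F2, chr1:23531234-23531483, minus strand: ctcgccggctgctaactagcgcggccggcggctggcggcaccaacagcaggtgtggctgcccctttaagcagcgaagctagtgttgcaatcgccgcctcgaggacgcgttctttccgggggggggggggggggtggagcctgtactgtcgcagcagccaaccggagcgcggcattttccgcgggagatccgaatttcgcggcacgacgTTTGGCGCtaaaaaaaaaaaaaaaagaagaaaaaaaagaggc
E2F3, chr6:20401629-20401878, plus strand: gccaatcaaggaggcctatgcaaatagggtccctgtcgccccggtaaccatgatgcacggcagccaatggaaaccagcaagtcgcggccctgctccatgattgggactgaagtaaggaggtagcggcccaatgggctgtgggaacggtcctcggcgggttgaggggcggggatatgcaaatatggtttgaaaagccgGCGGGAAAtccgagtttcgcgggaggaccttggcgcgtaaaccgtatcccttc
TFDP1, chr13:113584503-113584720, plus strand: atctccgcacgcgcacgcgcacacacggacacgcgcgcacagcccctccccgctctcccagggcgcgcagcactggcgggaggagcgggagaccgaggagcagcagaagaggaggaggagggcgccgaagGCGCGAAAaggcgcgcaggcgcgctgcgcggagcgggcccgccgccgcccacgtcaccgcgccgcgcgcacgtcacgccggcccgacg
E2F1 had 2 matches, which began 33 and 20 bases before the start. The single matches of E2F2, E2F3 and TFDP1 began 42, 53 and 120 bases before it. These distances are to the RefSeq start, which for TFDP1 lies past the gene start given further below. The stretch printed for TFDP1 therefore holds 218 bases. A match describes the letters only and does not show that a factor was bound. E2F4, E2F6, E2F7 and TFDP2 had no match in these windows, and no promoter of E2F5 or E2F8 was searched. Of the 26 G1/S target genes described further below, 21 had a promoter and 12 of these (57.1%) held the consensus.

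Library totals ranged from 23755510 to 32805574 counts. Levels are given as CPM, counts relative to the size of the library, after TMM scaling (trimmed mean of M values) of the libraries, and they are relative to the other mRNA of the same library. In bulk samples, fewer cells of a type and less RNA per cell cannot be told apart. Replicate 3 at 0.25 µM and replicate 3 at 0.5 µM stood apart from the other libraries on the third principal component, at -78.4 and -82.6 against -25.4 to 54.3, so counts of called members are also given without them. TMM scaling left the median log2 fold change of all genes at 0.28 to 0.34 against untreated cells, and scaling to library totals alone at 0.64 to 0.845. The median of all genes is therefore printed beside the medians of the family. The 7 K562 markers summed to between 3025 and 3413 CPM in untreated libraries and to between 812.6 and 945.6 CPM at 1 µM, with GATA1 going from 327.7 to 18.8 CPM, while HBE1 was near 0 in all libraries. The 3 fibroblast markers summed to between 21.9 and 25.4 CPM untreated and to between 300.7 and 485.3 CPM at 1 µM. Only COL1A1 made this rise, from 4.36 to 397.6 CPM on average. COL1A2 went the other way, from 18.9 to 9.69 CPM, and DCN was near 0. The 2 epithelial markers summed to between 817.7 and 876.5 CPM untreated and to between 2590 and 4527 CPM at 1 µM, with KRT8 going from 696.7 to 3245 CPM and EPCAM from 141.0 to 20.5 CPM. T cell, B cell and monocyte markers did not exceed 32.64 CPM in sum in any library, and MS4A1 was at or near 0. The part of these shifts in the results below was not tested.

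With TMM scaling every member of the family was lower at the 3 upper doses than in untreated cells and none was higher at any dose, although for E2F6, and for TFDP2 at 0.25 µM, the call and the sign depended on the scaling. A gene was called at an adjusted p under 0.05 in the quasi-likelihood test of edgeR, Benjamini-Hochberg adjusted over all genes tested and written below as edgeR adjusted p. At 0.15 µM, 5 of 10 members were called lower, where 51.2% of all genes were called, 19.4% lower and 31.9% higher. They were E2F3, E2F4, E2F5, E2F8 and TFDP1. At 0.25 µM all 10 were lower, against 62.3% of all genes called, 24.8% lower and 37.4% higher. At 0.5 µM all 10 were again lower, against 66.9% called, 27.6% lower and 39.4% higher. At 1 µM the count was 10 as well, against 66.2% called, 27.5% lower and 38.8% higher. The median log2 fold change of the members was -0.51, -1.48, -2.01 and -1.79 with rising dose, while that of all genes was 0.28, 0.32, 0.34 and 0.32. Without the 2 libraries that stood apart, the counts were 6, 10, 10 and 10. The 4 comparisons against untreated cells share the untreated libraries and are therefore not independent of each other.

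**Figure D1:**
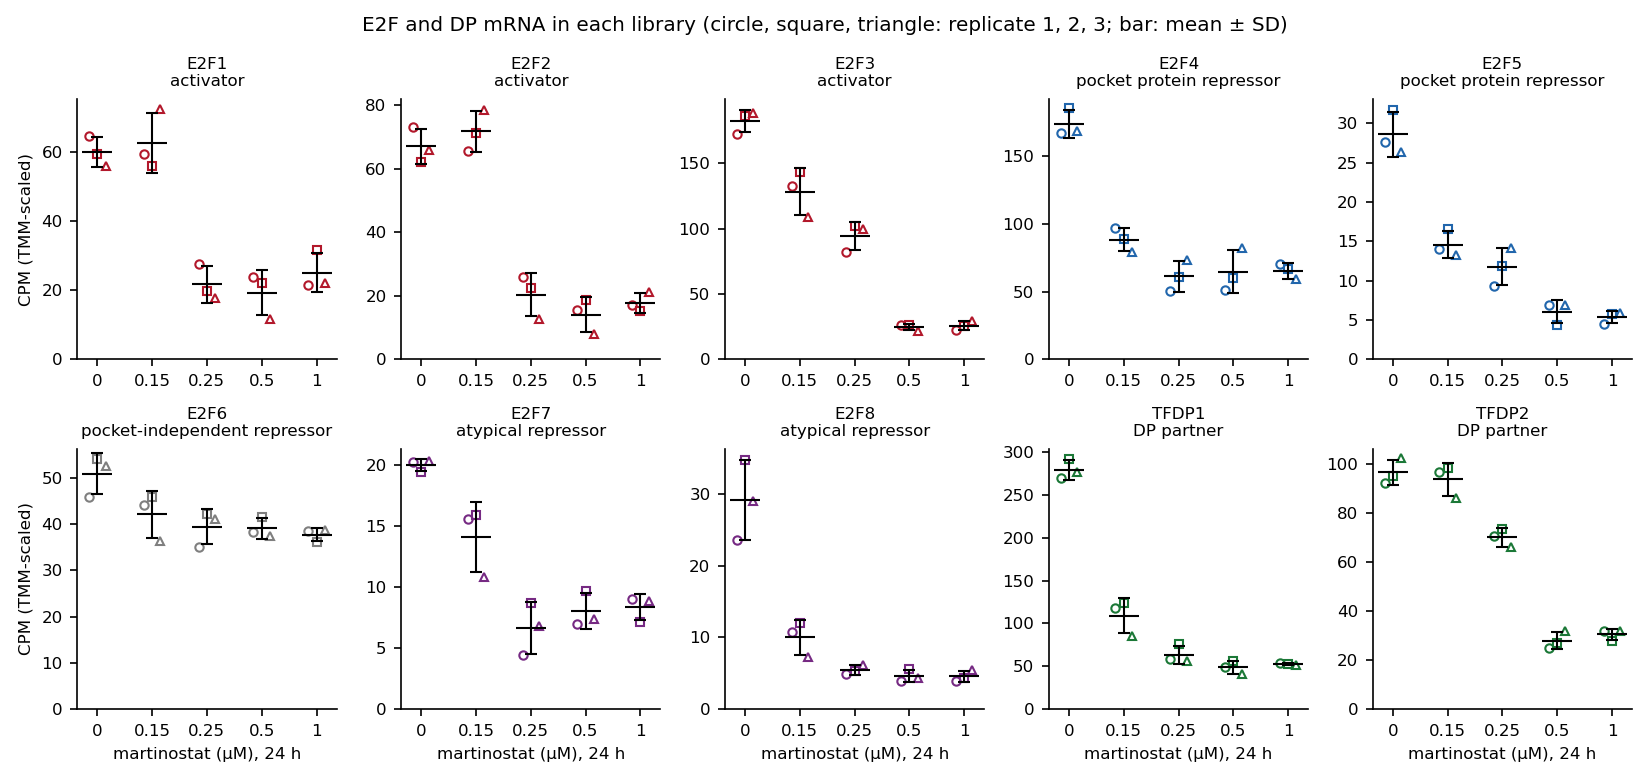
Level of each E2F and DP mRNA in CPM (vertical axes, starting at 0) against the dose of martinostat in µM (horizontal axes, equally spaced, 0 for untreated cells) in all 15 libraries. Symbols are single libraries, bars are the mean ± SD of 3. With this TMM scaling the libraries at 0.5 and 1 µM lie below the 3 untreated ones in every panel, by the smallest margin for E2F6, whose sign depended on the scaling. At these doses 66.9% and 66.2% of all genes were called. The share of all genes whose libraries separate without overlap is not given here.

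The activators E2F1 and E2F2 overlapped their untreated levels at the lowest dose and were lower from the next dose on. E2F1 (ENSG00000101412.13, chr20:33675477-33686385, minus strand), the activator also known for inducing apoptosis genes, stood at 64.8, 59.5 and 56.1 CPM in the untreated libraries and at 59.6, 55.9 and 72.4 CPM at 0.15 µM. Its libraries measured 27.7, 19.6 and 17.7 CPM at 0.25 µM, 23.9, 22.1 and 11.8 CPM at 0.5 µM, and 21.7, 31.5 and 22.2 CPM at 1 µM. The libraries at 0.15 µM overlapped the untreated ones, and those at the 3 upper doses all lay below both. At 0.15 µM the log2 fold change was 0.06 ± 0.23 (SE), edgeR adjusted p = 0.85, and it turned to -0.06 without replicate 3 of that dose. E2F1 fell by 1.47 on the log2 scale at 0.25 µM, and at 1 µM the log2 fold change was -1.26 ± 0.23, edgeR adjusted p = 0.000109.

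E2F2 (ENSG00000007968.7, chr1:23506438-23531233, minus strand), the second activator, measured 73.1, 62.1 and 65.9 CPM without the compound and 65.5, 71.2 and 78.4 CPM at 0.15 µM. At 0.25 µM its libraries stood at 25.9, 22.5 and 12.7 CPM, at 0.5 µM at 15.5, 18.6 and 7.94 CPM, and at 1 µM at 17.0, 15.1 and 21.1 CPM. Like E2F1, it overlapped the untreated range at the lowest dose and was clear of it from 0.25 µM on. Its log2 fold change was 0.10 at 0.15 µM (edgeR adjusted p = 0.78) and -1.72, -2.26 and -1.92 at the next 3 doses. For both genes, replicate 3 was the lowest library at 0.25 and at 0.5 µM, and these are the libraries that stood apart. Without them E2F1 had a log2 fold change of -1.32 at 0.25 µM and -1.35 at 0.5 µM, and E2F2 of -1.45 and -1.94.

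E2F3 (ENSG00000112242.15, chr6:20401879-20493714, plus strand), the most abundant activator per kb in untreated cells but below E2F1 at 0.5 and 1 µM, followed another course. Untreated libraries held 172.7, 186.1 and 188.4 CPM, those at 0.15 µM 132.8, 143.7 and 108.7 CPM, and those at 0.25 µM 81.8, 101.9 and 99.5 CPM. At 0.5 µM the level was 26.2, 25.9 and 22.0 CPM and at 1 µM 22.2, 25.8 and 29.2 CPM. Each of the first 3 steps moved the libraries into a range below the one before, and the step to 1 µM did not. Against untreated cells its log2 fold change was -0.51 ± 0.14 at 0.15 µM (edgeR adjusted p = 0.00687), -0.95 at 0.25 µM, -2.89 at 0.5 µM and lastly -2.82 at 1 µM. The call at 0.15 µM was lost with library totals as the scaling (log2 fold change -0.14) and with TMM restricted to genes that reach 10 CPM (-0.25). At 1 µM, E2F3 was at 14.1% of its untreated level, the lowest share among the members.

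E2F4, the repressor that reads promoters in resting cells, was lower than in untreated cells at every dose. E2F4 (ENSG00000205250.9, chr16:67192155-67198918, plus strand) stood at 166.8, 185.4 and 168.5 CPM in untreated cells, at 96.7, 88.9 and 79.3 CPM at 0.15 µM and at 50.3, 60.8 and 73.1 CPM at 0.25 µM. At 0.5 µM it measured 51.5, 60.2 and 82.3 CPM and at 1 µM 70.5, 66.3 and 59.1 CPM. All treated libraries lay below the untreated ones, and the ranges of the 3 upper doses overlapped each other. Its log2 fold change was -0.97 at 0.15 µM (edgeR adjusted p = 1.00e-04) and -1.50, -1.42 and -1.41 at the upper doses.

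E2F5 (ENSG00000133740.11, chromosome 8, plus strand), the other pocket protein repressor, was a low transcript with 27.6, 31.8 and 26.4 CPM in untreated libraries. It held 14.0, 16.5 and 13.2 CPM at 0.15 µM and 9.35, 11.8 and 14.1 CPM at 0.25 µM, and these 2 ranges overlapped. At 0.5 µM it was at 6.89, 4.39 and 6.85 CPM, and at 1 µM at 4.47, 5.70 and 5.86 CPM, both below the 2 lower doses. Log2 fold changes were -0.97, -1.28, -2.24 and -2.42 with rising dose (at 1 µM edgeR adjusted p = 7.33e-09). Genes of the opposite strand cover 18.8% of its exon bases, and the strand setting of the counting is not given in the sources used here.

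E2F6, the repressor that works without pocket proteins, had the log2 fold changes nearest to 0 at the 3 upper doses. E2F6 (ENSG00000169016.17, chr2:11444375-11466177, minus strand) stood at 46.0, 54.2 and 52.7 CPM in untreated cells and at 44.1, 45.97 and 36.4 CPM at 0.15 µM. At 0.25 µM it measured 35.1, 42.2 and 41.2 CPM, at 0.5 µM 38.3, 41.6 and 37.4 CPM, and at 1 µM 38.5, 36.1 and 38.7 CPM. The untreated libraries were the 3 highest of the 15, by a narrow margin at the lowest dose. The log2 fold change was -0.27 ± 0.13 at 0.15 µM (edgeR adjusted p = 0.0922), then -0.37 (0.0216), -0.38 (0.0161) and -0.43 (0.00769). These calls rested on the scaling: with library totals the log2 fold change was 0.16, -0.004 and -0.08 at the 3 upper doses, and with TMM restricted to genes that reach 10 CPM it was 0.05, 0.03 and -0.05, none of them called. On genes with at least 10 counts in every library it was -0.08, -0.09 and -0.16, again not called. The call at 0.25 µM was also lost without untreated replicate 2 (-0.32), untreated replicate 3 (-0.35) or 0.25 µM replicate 1 (-0.29), with no filter on low counts (-0.37) and in a fit of only the libraries compared (-0.30). The call at 0.5 µM was also lost without untreated replicate 2 (-0.34) or 3 (-0.36) and with no filter (-0.39).

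The atypical repressors E2F7 and E2F8, which damp activator targets late in S phase, did not move by the same amount. E2F7 (ENSG00000165891.16, chr12:77021248-77065569, minus strand) measured 20.2, 19.4 and 20.4 CPM in untreated libraries, 15.5, 15.9 and 10.8 CPM at 0.15 µM and 4.44, 8.70 and 6.81 CPM at 0.25 µM. It stayed low at 6.98, 9.71 and 7.37 CPM at 0.5 µM and 9.05, 7.12 and 8.86 CPM at 1 µM. The libraries at 0.15 µM lay between the untreated ones and those of the upper doses, without overlap on either side. The log2 fold change was -0.51 ± 0.22 at 0.15 µM, which missed the threshold (edgeR adjusted p = 0.0629) but passed it in DESeq2 and in 7 of 24 alternatives in all, and -1.59, -1.32 and -1.26 at the upper doses.

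E2F8 (ENSG00000129173.13, chr11:19224063-19241620, minus strand) stood at 23.6, 34.7 and 29.0 CPM in untreated libraries and at 10.8, 11.9 and 7.26 CPM at 0.15 µM. It measured 4.91, 5.30 and 6.21 CPM at 0.25 µM, 3.93, 5.56 and 4.32 CPM at 0.5 µM and 3.94, 4.28 and 5.41 CPM at 1 µM. All treated libraries were clear of the untreated ones, and the ranges of the 3 upper doses overlapped. Its log2 fold change was -1.54 ± 0.22 at 0.15 µM (edgeR adjusted p = 9.35e-06), the lowest of the family at that dose, and -2.41, -2.66 and -2.68 above it.

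Within a library, the ratio of 2 genes does not depend on how libraries are scaled, so the balance of the atypical pair was tested on it. The log2 ratio of E2F7 to E2F8, each per kb of exon, was -1.13 ± 0.31 (SD, n = 3) in untreated libraries and 0.00 ± 0.35 (SD, n = 12) in treated ones. It lay above all untreated libraries in 12 of 12 treated libraries, and the difference was 1.13. A two-sided exact permutation test of 12 treated against 3 untreated libraries gave p = 0.0044, the smallest that its 455 arrangements allow, and 0.00659 after Benjamini-Hochberg adjustment over the 3 ratios tested. E2F8 was thus the more abundant of the pair per kb in untreated cells, and the mean log2 ratio at the 4 doses lay between -0.37 and 0.27. The 3 ratios were chosen with earlier results of these data known, so the permutation test describes the separation and is no independent support.

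TFDP1 was the most abundant member per kb in untreated cells and fell at the first dose, where TFDP2 was not called. TFDP1 (ENSG00000198176.13, chr13:113584721-113641473, plus strand), the main DP partner, held 269.3, 291.5 and 277.3 CPM in untreated libraries and 117.8, 124.2 and 85.6 CPM at 0.15 µM. Its level was 58.0, 75.5 and 55.9 CPM at 0.25 µM, 49.0, 56.5 and 40.6 CPM at 0.5 µM and 53.6, 53.1 and 51.2 CPM at 1 µM. The untreated libraries, those at 0.15 µM and those at the upper doses formed 3 ranges without overlap. Against untreated cells the log2 fold change was -1.36 ± 0.16 at 0.15 µM (edgeR adjusted p = 1.58e-06) and -2.15, -2.52 and -2.41 above it.

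TFDP2 (ENSG00000114126.18, chr3:141944428-142149544, minus strand), the second DP partner, stood at 92.4, 95.2 and 102.5 CPM untreated and at 97.1, 98.4 and 86.2 CPM at 0.15 µM. It measured 70.8, 73.6 and 66.2 CPM at 0.25 µM, 24.9, 27.1 and 31.9 CPM at 0.5 µM and 32.0, 28.0 and 31.9 CPM at 1 µM. The lowest dose overlapped the untreated range, and 0.25 µM lay below it and the 2 upper doses lower still. The log2 fold change was -0.04 at 0.15 µM (edgeR adjusted p = 0.804), -0.46 at 0.25 µM (0.00403), -1.79 at 0.5 µM and lastly -1.66 at 1 µM. At 0.25 µM the call was lost with library totals (0.06), with TMM restricted to genes that reach 10 CPM (-0.05) and on genes with at least 10 counts in every library (-0.18). At 0.15 µM the sign of the log2 fold change depended on the scaling and on replicate 3 of either group.

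The log2 ratio of TFDP1 to TFDP2 per kb was 3.20 ± 0.09 (SD, n = 3) in untreated libraries and 2.07 ± 0.47 (SD, n = 12) in treated ones, a difference of -1.13. It lay below every untreated library in 12 of 12 treated libraries, with the same smallest p of 0.0044 in the two-sided exact permutation test (0.00659 adjusted over the 3 ratios). This ratio too was chosen with earlier results of these data known. By dose, the ratio on the linear scale was 9.19 in untreated cells, 3.67 at 0.15 µM, 2.85 at 0.25 µM, 5.64 at 0.5 µM and lastly 5.48 at 1 µM. It was lowest at 0.25 µM, where its libraries overlapped those at 0.15 µM.

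**Figure D2:**
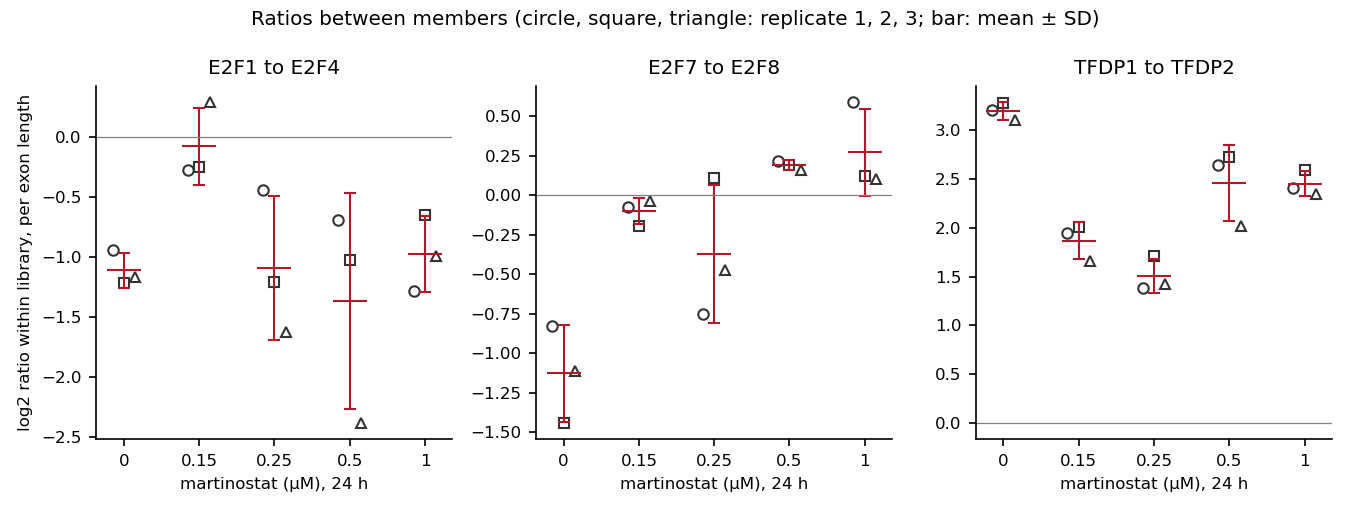
Log2 ratio of CPM per kb of exon within each library (vertical axis) for E2F1 to E2F4, E2F7 to E2F8 and TFDP1 to TFDP2, by dose of martinostat in µM (horizontal axis), with 1 symbol per library and the mean ± SD of 3. All 12 treated libraries lie above the untreated ones for E2F7 to E2F8 and below them for TFDP1 to TFDP2, while E2F1 to E2F4 is raised at 0.15 µM and overlaps the untreated range above it.

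For an activator against a pocket protein repressor, the test over all doses missed the threshold. The log2 ratio of E2F1 to E2F4 per kb was -1.11 ± 0.15 (SD, n = 3) untreated and -0.88 ± 0.71 (SD, n = 12) treated, a difference of 0.23 (two-sided exact permutation test, p = 0.554, adjusted over the 3 ratios 0.554). At 0.15 µM the libraries gave -0.28, -0.25 and 0.29, all above the untreated values of -0.94, -1.22 and -1.17. At 0.25, 0.5 and 1 µM they ran from -1.63 to -0.44, from -2.38 to -0.69 and from -1.28 to -0.65, and each of these ranges overlapped the untreated one. With 3 against 3 libraries an exact permutation test of a single dose cannot give a p under 0.1, so the dose of 0.15 µM is given as values only.

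Put together per kb of exon, the 8 E2F mRNAs summed to 145.6 ± 4.81 CPM per kb (SD, n = 3) in untreated cells, 103.2 ± 3.72 at 0.15 µM, 61.1 ± 3.68 at 0.25 µM, 45.5 ± 1.73 at 0.5 µM and lastly 48.3 ± 1.39 at 1 µM. The activators E2F1, E2F2 and E2F3 made up 48.0% ± 1.97 of this sum in untreated cells and 59.4% ± 3.15 at 0.15 µM. Their share was 49.2% ± 4.96 at 0.25 µM, 31.9% ± 8.58 at 0.5 µM and lastly 36.3% ± 3.44 at 1 µM. The activator share was thus highest at the lowest dose and lowest at the 2 upper doses, where no library reached the untreated range. At 0.5 µM it was spread widely, with 38.3%, 35.2% and 22.1% in replicates 1, 2 and 3. The share of E2F4 was 33.1% ± 0.87 untreated, 23.8% ± 1.71 at 0.15 µM, 27.8% ± 3.81 at 0.25 µM, 39.5% ± 9.43 at 0.5 µM and lastly 37.6% ± 3.27 at 1 µM. It was below the untreated range at the 2 lower doses and above it at 1 µM, while at 0.5 µM the libraries held 32.8%, 35.5% and 50.3%, the first of them within that range. The share of E2F6 went from 8.60% ± 0.56 to 21.2% ± 0.83 at 0.5 µM and 19.2% ± 1.27 at 1 µM. These shares are descriptions of the same levels and carry no test of their own.

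The 2 DP mRNAs summed to 82.7 ± 3.08 CPM per kb (SD, n = 3) untreated, 37.1 ± 6.09 at 0.15 µM, 22.8 ± 3.15 at 0.25 µM, 15.4 ± 1.92 at 0.5 µM and lastly 16.6 ± 0.33 at 1 µM. For each unit of DP mRNA there were 1.64 ± 0.03 units of the DP-dependent E2F mRNAs, E2F1 to E2F6, in untreated cells. With martinostat this figure was 2.70 ± 0.41, 2.61 ± 0.35, 2.83 ± 0.33 and 2.76 ± 0.11 with rising dose, above the untreated libraries at each dose. TFDP1 made up 90.2% ± 0.55 of DP mRNA in untreated cells, 73.9% ± 2.32 at 0.25 µM and 84.5% ± 1.14 at 1 µM. Per kb refers to all annotated exon bases of a gene, 3744 for TFDP1 and 11897 for TFDP2. Sums, shares and orders per kb depend on these lengths. These are mRNA levels, and protein was not measured in these libraries.

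The order of levels per kb changed as well. In untreated cells it ran, in CPM per kb, from TFDP1 (74.6) over E2F4 (48.3), E2F3 (35.2), E2F1 (22.4), E2F6 (12.5), E2F2 (12.3), TFDP2 (8.13), E2F8 (7.04) and E2F5 (4.77) to E2F7 (3.18). The libraries of E2F6 and E2F2 overlapped, as did those of TFDP2 and E2F8, and the other neighbors did not. At 1 µM it ran from E2F4 (18.2) over TFDP1 (14.1), E2F1 (9.34), E2F6 (9.29), E2F3 (4.96), E2F2 (3.24), TFDP2 (2.58), E2F7 (1.33) and E2F8 (1.10) to E2F5 (0.891). There the pairs E2F1 and E2F6, E2F7 and E2F8, and E2F8 and E2F5 overlapped. E2F4 had taken the first place from TFDP1, and E2F3 had dropped from the third place to the fifth.

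**Figure D3:**
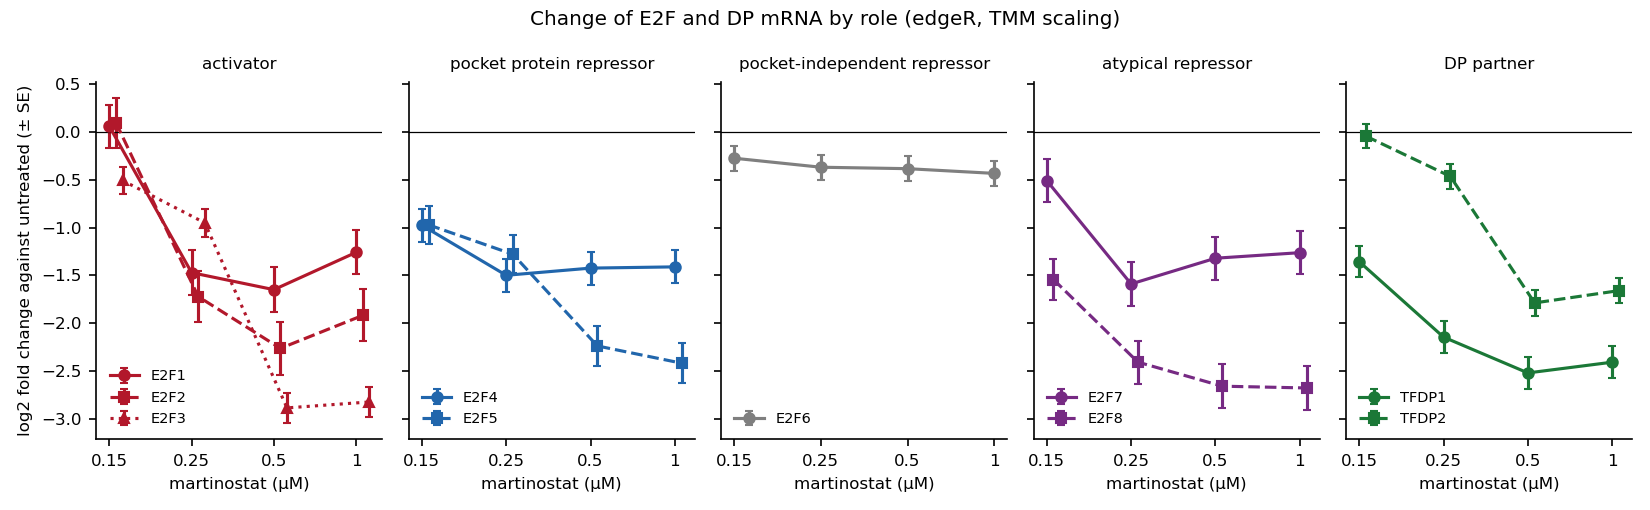
Log2 fold change against untreated cells ± SE from the edgeR fit (vertical axis, shared by all panels) by dose of martinostat in µM (horizontal axis, equally spaced), with 1 panel per role. E2F1, E2F2 and TFDP2 start near 0 at 0.15 µM and E2F3, E2F5 and TFDP2 drop again between 0.25 and 0.5 µM, while E2F6 stays between -0.27 and -0.43 with this TMM scaling.

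Calls at the steps between neighboring doses differed between members, and some of them depended on the settings. From 0.15 to 0.25 µM, 6 members were lower, where 12.3% of all genes were called, 7.32% lower and 4.96% higher. They were E2F2 (log2 fold change -1.82), E2F1 (-1.53), E2F7 (-1.08), E2F8 (-0.86), TFDP1 (-0.79) and TFDP2 (-0.42). E2F4 and E2F3 missed the threshold at this step, with log2 fold changes of -0.52 (edgeR adjusted p = 0.0503) and -0.44 (0.0528), and both passed it without the 2 libraries that stood apart, which made the count 8. The call of TFDP2 was lost in 16 of 24 alternative settings. That of E2F8 was lost with library totals (-0.69), on only the libraries compared (-0.81) and without 0.15 µM replicate 1 (-0.81), 0.15 µM replicate 2 (-0.72) or 0.25 µM replicate 1 (-0.80).

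From 0.25 to 0.5 µM, 3 members were lower, where 30.4% of all genes were called, 16% lower and 14.4% higher. These were E2F3 (log2 fold change -1.94, edgeR adjusted p = 2.72e-08), TFDP2 (-1.32, 3.72e-07) and E2F5 (-0.96, 0.00131), and the count was 4 without the 2 libraries that stood apart. With all libraries, 3 of 10 members is near the share of all genes called in either direction. From 0.5 to 1 µM no member was called by edgeR or DESeq2, none had an unadjusted p under 0.05, and edgeR called 0% of all genes, 0 in either direction, with 372 of 23711 genes at an unadjusted p under 0.05. Between 0.15 and 1 µM, 9 members were lower, all except E2F6 (log2 fold change -0.16, edgeR adjusted p = 0.352), where 44.5% of all genes were called, 23.1% lower and 21.5% higher. The call of E2F4 in that comparison (-0.44, edgeR adjusted p = 0.0438) was lost in 16 of 24 alternative settings, and that of E2F7 (-0.75) without 1 µM replicate 2 (-0.65).

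The network around the family was described from 6 gene lists, with the lower and higher calls against untreated cells at each dose. Over all genes, the share called lower was 19.4%, 24.8%, 27.6% and 27.5% with rising dose, and the share called higher 31.9%, 37.4%, 39.4% and 38.8%. The list of pocket proteins, MuvB subunits and MYBL2 had 5, 6, 5 and 5 of 9 genes lower with rising dose. Its median log2 fold change was -0.77 at 1 µM, against 0.32 over all genes. Without the 2 libraries that stood apart the counts were 6, 6, 5 and 5. MYBL2, the MuvB partner that turns the complex to activation, went from 554.8 ± 63.5 CPM (SD, n = 3) untreated to 105.3 ± 7.50 CPM at 1 µM, a log2 fold change of -2.40 (edgeR adjusted p = 7.69e-05). RBBP4, a histone-binding MuvB subunit, went from 351.8 ± 11.2 to 144.7 ± 5.70 CPM (-1.28). LIN37, a MuvB subunit needed for repression, was higher at 0.5 and 1 µM, with 1.35 ± 0.38 CPM untreated and 5.91 ± 1.26 CPM at 1 µM (2.13), with 41.8% of its exon bases covered from the opposite strand. The pocket protein gene RBL1 was called lower at every dose with TMM over all tested genes. It went from 39.7 ± 2.12 CPM untreated to 23.4 ± 1.79 CPM at 1 µM (log2 fold change -0.77, edgeR adjusted p = 0.000155). RB1 and RBL2 were not called at any dose, with 58.0 ± 5.46 and 75.0 ± 6.59 CPM for RB1 and 26.3 ± 2.63 and 27.6 ± 1.68 CPM for RBL2, untreated and at 1 µM. RB1 was called higher at 0.5 and 1 µM with library totals (log2 fold change 0.69 and 0.73) and with TMM restricted to genes that reach 10 CPM (0.72 and 0.75), and both of these scalings also called LIN37 higher at 0.25 µM.

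G1/S targets, the genes of DNA replication that activator E2Fs switch on, had 22, 25, 23 and 23 of 26 genes lower with rising dose. None was higher in the fit of all libraries with TMM over all tested genes. TK1, thymidine kinase, was called higher at 0.5 and 1 µM with library totals and with TMM restricted to genes that reach 10 CPM, and at the 3 upper doses without the 2 libraries that stood apart, where the counts of lower genes were 22, 25, 23 and 24. Their median log2 fold change was -1.18, -2.12, -1.80 and -1.74, with all genes at 0.28, 0.32, 0.34 and 0.32. TYMS, which makes thymidylate for DNA, went from 81.8 ± 6.02 CPM (SD, n = 3) untreated to 2.80 ± 0.80 CPM at 1 µM, a log2 fold change of -4.87 (edgeR adjusted p = 3.96e-13), and opposite-strand genes cover 47.9% of its exon bases. CDC25A, the phosphatase that activates cyclin-dependent kinases, went from 186.5 ± 10.4 to 23.4 ± 2.12 CPM (-2.99). The 3 genes not called at 0.5 and 1 µM were CDT1, RRM2 and TK1, of which CDT1 was called lower at 1 µM without the 2 libraries that stood apart (-0.52). RRM2, a subunit of ribonucleotide reductase, was lower at 0.25 µM with 67.0 ± 20.8 CPM and stood at 282.1 ± 46.4 CPM at 1 µM against 340.1 ± 23.9 CPM untreated (log2 fold change at 1 µM -0.27, edgeR adjusted p = 0.358). At 0.15 µM 22 of these targets were lower. There E2F1 and E2F2 stood at 62.6 ± 8.67 and 71.7 ± 6.45 CPM against 60.1 ± 4.40 and 67.0 ± 5.59 CPM untreated. E2F3 was at 128.4 against 182.4 CPM and TFDP1 at 109.2 against 279.3 CPM, both called lower. A link between these levels and the targets was not tested.

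G2/M targets, the mitotic genes controlled by DREAM, MYBL2 and FOXM1, had 9, 11, 11 and 10 of 12 genes lower and none higher. Of all genes, 19.4%, 24.8%, 27.6% and 27.5% were called lower with rising dose. Without the 2 libraries that stood apart, 12, 12, 11 and 11 genes of the list were lower. With TMM restricted to genes that reach 10 CPM the counts were 9, 10, 9 and 8. AURKA, a kinase of the spindle poles, went from 104.7 ± 7.85 to 20.7 ± 0.85 CPM at 1 µM (log2 fold change -2.34), and PLK1, another mitotic kinase, from 346.1 ± 33.7 to 76.6 ± 9.92 CPM (-2.18). CDC20, an activator of the anaphase-promoting complex, was not called at any dose with all libraries, with 294.0 ± 21.5 CPM untreated and 257.4 ± 17.3 CPM at 1 µM. Without the 2 libraries that stood apart it was called lower at 0.15 µM (log2 fold change -0.49, edgeR adjusted p = 0.000397) and at 0.25 µM (-0.35, 0.0138).

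Apoptosis targets of E2F1 were called in both directions, as were all genes. In this list of 7, 3 genes were lower at 0.15 µM and 4 at each upper dose, while APAF1 and PPP1R13B were higher at every dose. Of all genes, 19.4%, 24.8%, 27.6% and 27.5% were called lower with rising dose, and 31.9%, 37.4%, 39.4% and 38.8% higher. PPP1R13B, whose product binds p53, had 40 counts over the 3 untreated libraries and 2711 at 1 µM, and went from 0.53 ± 0.21 to 31.6 ± 1.95 CPM (log2 fold change 5.89, edgeR adjusted p = 5.01e-13). APAF1, the core of the apoptosome, went from 16.9 ± 1.94 to 56.5 ± 3.52 CPM (1.74). TP73, a relative of p53, was lower at the upper doses, from 16.2 ± 1.14 to 7.60 ± 0.89 CPM at 1 µM (-1.09), while at 0.15 µM it stood at 22.3 ± 4.86 CPM and was not called with all libraries and TMM over all tested genes. With library totals, with TMM restricted to genes that reach 10 CPM and without the 2 libraries that stood apart, TP73 was called higher at 0.15 µM. TP53BP2 was also lower at 1 µM (-0.67). With library totals or with TMM restricted to genes that reach 10 CPM, only 1 gene of the list was lower at 0.5 and at 1 µM.

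The partners of E2F6 in PRC1.6 had 5, 6, 7 and 7 of 9 genes lower with rising dose. Of all genes, 19.4%, 24.8%, 27.6% and 27.5% were called lower, and 31.9%, 37.4%, 39.4% and 38.8% higher. PCGF6, a core subunit, went from 41.5 ± 2.85 to 6.80 ± 0.72 CPM at 1 µM (log2 fold change -2.61), and L3MBTL2, which binds chromatin, from 50.9 ± 2.09 to 11.9 ± 1.31 CPM (-2.10). RING1, a ubiquitin ligase subunit, was called higher at 0.5 µM (log2 fold change 0.46, edgeR adjusted p = 0.0364) and missed the threshold at 1 µM (0.42, 0.0511). It was called higher at 1 µM also with RLE size factors and without the 2 libraries that stood apart, and at every dose with library totals and with TMM restricted to genes that reach 10 CPM. Of 5 germline genes known to be silenced with E2F6, 3 passed the filter on low counts. With TMM over all tested genes, 1 of the 3 was called higher at each of 0.15, 0.5 and 1 µM. That is near the share of all genes called higher. MAEL had 1 count over the 3 untreated libraries, 0 at 0.15 µM, 6 at 0.25 µM, 54 at 0.5 µM and lastly 77 at 1 µM, and was called higher at the last 2 doses. Relative to library size, its ratio of 1 µM to untreated was 68.1, with a 95% exact interval from 11.9 to 2723 that covers counting error only. STAG3, a meiotic cohesin subunit, was called higher at 0.15 µM, at 50.8 ± 4.05 against 36.4 ± 2.55 CPM. With TMM over all tested genes it was not called above that dose, with log2 fold changes of -0.04, -0.25 and -0.17. With library totals or with TMM restricted to genes that reach 10 CPM, STAG3 was called higher also at 0.25 µM.

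**Figure D4:**
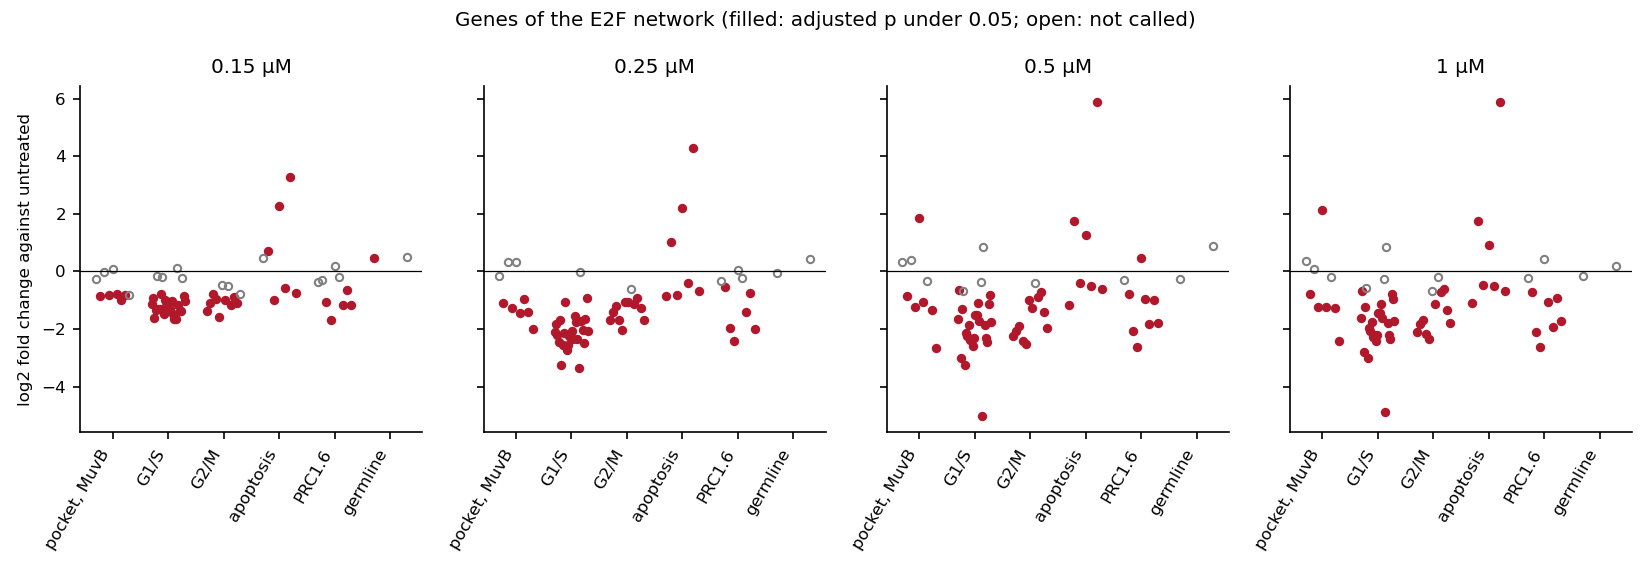
Log2 fold change against untreated cells (vertical axis) of the tested genes in the 6 lists (horizontal axis), with 1 panel per dose of martinostat. Filled points passed an adjusted p under 0.05 and open points did not. The G1/S and G2/M points lie almost wholly below 0 at each dose, the apoptosis list lies on both sides, and MAEL, with 1 count in untreated cells, is left out.

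Finally, each member was set beside the protein-coding genes whose log2 CPM had the most similar course over the 15 libraries, among 9615 with a mean of at least 10 CPM. The libraries fall into dose groups, so these Pearson correlations describe a shared dose course and have no p. E2F3 was most like SRSF8 (r = 0.998), which went from 90.3 CPM untreated over 45.5 CPM at 0.25 µM to 11.1 CPM at 0.5 µM, and next TMA16 (0.997). TFDP1 was most like FBXO5 (0.994), the inhibitor of the anaphase-promoting complex, and FBXO45 (0.994), and TFDP2 most like PSTPIP2 (0.994) and PTPRC (0.993). For E2F1 the nearest genes were ESRRA (0.971) and EXOSC6 (0.966), and for E2F2 MGRN1 and PRR5 (both 0.98). E2F4 was most like PCID2 (0.982) and NFYB (0.976), and E2F5 most like SMYD2 (0.988) and PTGR3 (0.985). E2F6 was nearest to QSER1 (0.963) and C6orf120 (0.96), E2F7 to ZFP36L2 (0.966) and DNA2 (0.956), and E2F8 to RNF138 (0.989) and ICE2 (0.988). Within the family, the highest correlations were those of E2F8 with TFDP1 (0.98) and of E2F3 with TFDP2 (0.979), E2F1 and E2F2 one of 0.959, and E2F1 and E2F6 one of 0.526.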

How the data were processed

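Counts of 15 libraries of K562 cells were analysed. Per the labels and the methods of the study, the authors used a directional kit on poly(A) RNA, trimmed reads with Trim Galore 0.6.10, aligned them to hg38 with HISAT2 2.2.1 and counted fragments per GENCODE 38 gene with featureCounts 1.5.3. The deposited table holds raw counts, not normalized, of 60649 genes. The strand setting of the counting is not given in the sources used here. FPKM tables were not used. Symbols, positions and exon lengths came from GENCODE 44 on hg38 (9 of the 10 members had the same identifier version).

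Counts were tested with edgeR 4.0.16 in R 4.3.3: filterByExpr, TMM scaling, all 15 libraries in a single fit with group as the term, robust quasi-likelihood F test, Benjamini-Hochberg adjustment over 23711 genes, called at an adjusted p under 0.05. CPM were computed on scaled library sizes. P-values measure the spread between libraries labelled as biological replicates. Replicates differed beyond sampling noise in every pair (chi-square of at least 6.49 per degree of freedom). Log2 ratios of genes within a library used CPM per kb of exon with a prior count of 0.5 and exact permutation tests (scipy 1.17.1). Promoters were RefSeq sequences of GRCh38.p14. The fit was tested on simulated data in which few genes changed and as many rose as fell. Such data cannot test the choice of scaling. The 24 alternatives included DESeq2 1.42.0, other scalings, filters, a replicate block and leaving out libraries. The members, lists and tests were chosen with earlier results of these data known. All 10 members, the 2 genes most like each, and, from each list, up to 2 genes per direction with the largest log2 fold change at 1 µM among those called at 0.5 and 1 µM were named. Genes of a list that were not called, and CDC20, RRM2, RING1, RB1, RBL1, RBL2 and STAG3, were named after their values were seen. List counts under other scalings and without 2 libraries were chosen after seeing the data. A single gene of the lists is not reported here.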

Additional observations from a re-analysis of the deposited data

How the results depend on the processing

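Over 61 values and calls of members and 24 alternatives, 1377 of 1464 kept their direction and their side of the threshold. With the sign kept, 56 lost the call and 20 gained it, and 11 changed sign, some of them losing the call as well. The 61 hold every member against untreated cells, but between doses only members with an unadjusted p under 0.05. Counts of called members ranged from 4 to 7 at 0.15 µM (7 in DESeq2), 8 to 10 at 0.25 µM and 9 to 10 at 0.5 and 1 µM, from 4 to 8 for the step from 0.15 to 0.25 µM, 3 to 5 for the step to 0.5 µM and 7 to 9 between 0.15 and 1 µM, and stayed at 0 for the step to 1 µM. With library totals alone, 5 members were called from 0.25 to 0.5 µM. The log2 fold changes that changed sign were, with library totals, E2F6 at 0.15 µM (0.0923) and 0.25 µM (0.16) and TFDP2 at 0.15 µM (0.32) and 0.25 µM (0.0600). With TMM restricted to genes that reach 10 CPM they were E2F6 at 0.25 µM (0.0536) and 0.5 µM (0.0287) and TFDP2 at 0.15 µM (0.22). On genes with at least 10 counts in every library, TFDP2 at 0.15 µM was at 0.13. Leaving out each library in turn, TFDP2 at 0.15 µM ranged from -0.0766 to 0.0113 (0.0009 without untreated replicate 3 and 0.0113 without 0.15 µM replicate 3), and E2F1 from -0.0624 (without 0.15 µM replicate 3) to 0.136. The cause was not tested.

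Same-numbered libraries deviated together only between 0.25 and 0.5 µM (correlations of 0.208 to 0.506, against -0.052 to 0.0731 in the other pairs of groups), so the numbers were not taken to pair libraries. With the replicate block, 5, 10, 10 and 10 members were called against untreated cells and 6, 3 and 0 at the steps, and 8 between 0.15 and 1 µM, where E2F4 (log2 fold change -0.44) missed the threshold. The block changed no other call of a member. It fits the same replicate effect in all 5 groups, and a pairing of only 0.25 and 0.5 µM was not fitted. Low counts limit MAEL, and 3 libraries per group limit every single-dose comparison of ratios.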
